A study of Mus musculus with 12 samples.

Results

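Amino acid breakdown enzymes are described here through 9 genes of mouse liver, chosen by symbol: Tat, Hpd, Hgd and Fah of tyrosine breakdown, Tdo2 of tryptophan, Hal of histidine, Aass of lysine, Prodh of proline and Sds of serine. They are 9 of the 13900 genes that were tested. Each is read by 1 array probe whose transcript accession carries its symbol. All 9 passed the filter on dim probes, and 8 of them were well above background on all 12 arrays, while Sds was so on 11.

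The liver clears most amino acids that are not built into protein, by removing the amino group and passing the carbon skeleton to glucose, ketone bodies or energy production. Tyrosine is broken down in a short chain of steps, by tyrosine aminotransferase (Tat), hydroxyphenylpyruvate dioxygenase (Hpd), homogentisate dioxygenase (Hgd) and, at its end, fumarylacetoacetate hydrolase (Fah), and inherited loss of these enzymes causes tyrosinaemia or alkaptonuria. Tat and tryptophan dioxygenase (Tdo2) are classical liver genes induced by glucocorticoids, and serine dehydratase (Sds) is induced by glucagon and fasting.

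Livers of male C57BL/6NJcl mice were compared between 2 diets at 3 times. The CDAHFD groups received a choline-deficient, high-fat feed in which L-amino acids take the place of protein, with methionine at 0.1% by weight and 60 kcal% of fat, given to induce steatohepatitis, for 1, 2 or 6 weeks. The control groups received the chow CE-2 for the same times, so the diets differ in fat, choline, methionine and protein source together, and the parts played by each cannot be told apart. Mice were 7, 8 and 12 weeks old at 1, 2 and 6 weeks. Total RNA of 150 ng was labelled with Cy3 and hybridised to 1-colour Agilent arrays, 2 per group and 12 in all. The labels do not say whether the 2 replicates of a group came from separate mice. Each p-value rests on the spread between the 2 arrays of a group, pooled over the 6 groups and drawn toward that of other genes. This spread could be technical alone.

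Each level is a log2 spot intensity minus that array's 75th percentile, and levels of different probes are not compared. Each diet difference is CDAHFD minus control, less the median difference over all genes. That median was 0.13, 0.05 and 0.03 at 1, 2 and 6 weeks, and 0.08 for the average over weeks. Its error is the standard error (SE) of a limma fit to all 13900 genes, and p is adjusted over all of them by Benjamini-Hochberg, with 0.05 as the threshold. The value and its interval are given after the median is subtracted, while p tests the difference before it. A test of the subtracted value was added after seeing the data, and calls that it changes are given beside the result. Statements that a gene rose or fell refer to this threshold. Of the probes, 45.4 to 49.7% were well above background on CDAHFD arrays and 40.4 to 44.4% on control arrays. The 75th percentile of intensity, which the scaling removes, was 1555 to 1920 on CDAHFD arrays and 856 to 1409 on control arrays. A rise or fall is thus relative to the other probes of an array, and the cause of this gap was not tested. In control replicate 1 at 1 week, a corner of the array was dim, with 262 spots 8-fold or more under their level on all other arrays. Among the 9 enzymes it touched the probe of Sds, for which values with these spots masked are given.

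The promoters of 8 of the 9 genes were found in the RefSeq table (build GRCm38.p6), each 300 bases long, from 250 before to 50 after the gene's start. Those of Hal, Hgd, Fah and Tat are shown 5′ to 3′, since Hal and Hgd had the largest diet differences of the set, and Fah and Tat stand at the end and the start of the tyrosine chain. Capitals mark matches to the motifs that were searched.
Hal, chr10:93488518-93488817, plus strand: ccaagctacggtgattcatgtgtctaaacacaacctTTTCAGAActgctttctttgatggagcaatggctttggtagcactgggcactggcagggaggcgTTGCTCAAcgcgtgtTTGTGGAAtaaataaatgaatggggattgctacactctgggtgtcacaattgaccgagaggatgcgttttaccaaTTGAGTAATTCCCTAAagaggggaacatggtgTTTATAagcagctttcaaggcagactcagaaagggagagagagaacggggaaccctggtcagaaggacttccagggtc
Hgd, chr16:37579903-37580202, plus strand: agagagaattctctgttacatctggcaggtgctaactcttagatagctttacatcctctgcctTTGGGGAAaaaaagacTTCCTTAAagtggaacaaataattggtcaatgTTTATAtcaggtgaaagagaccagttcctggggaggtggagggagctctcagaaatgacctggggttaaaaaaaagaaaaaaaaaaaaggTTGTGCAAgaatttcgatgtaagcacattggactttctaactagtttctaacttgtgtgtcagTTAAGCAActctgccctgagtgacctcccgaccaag
Fah, chr7:84605893-84606192, minus strand: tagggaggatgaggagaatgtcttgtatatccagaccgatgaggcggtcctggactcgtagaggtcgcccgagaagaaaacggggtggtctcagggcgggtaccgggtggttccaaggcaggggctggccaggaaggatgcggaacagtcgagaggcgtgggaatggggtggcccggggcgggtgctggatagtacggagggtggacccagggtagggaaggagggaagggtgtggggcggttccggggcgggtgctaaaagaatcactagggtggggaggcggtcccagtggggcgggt
Tat, chr8:109990186-109990485, plus strand: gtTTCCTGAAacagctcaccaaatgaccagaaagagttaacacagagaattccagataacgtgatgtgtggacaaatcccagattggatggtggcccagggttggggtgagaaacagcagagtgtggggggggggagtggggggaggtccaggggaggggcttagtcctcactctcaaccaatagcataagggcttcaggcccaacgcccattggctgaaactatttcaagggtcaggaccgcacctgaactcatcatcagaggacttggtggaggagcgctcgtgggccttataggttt

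On both strands, 7 motifs were searched. The C/EBP motif, TTNNGNAA, bound by a family of liver transcription factors, was present in 4 of the 8 promoters (Tat, Hgd, Hal and Aass), against 40.7% of all 32851 mouse promoters. Hal held 5 matches, a number that 0.213% of all promoters reached, and Hgd held 4, a number that 0.852% reached. Tat and Aass held 1 each. Shares by number of matches were taken for this motif alone, and not among promoters of like GC content. A link to the size of the diet difference was not tested. The Hgd and Hal windows had GC contents of 41.0 and 47.7%, and Fah, with no match to any of the motifs, one of 64.3%. The TATA box, TATAAA, was present in Tdo2, Hgd and Hal (13.6% of all promoters), in Hal on the minus strand from base -28. The CREB motif, TGACG, was present in Aass (20.8% of all). The glucocorticoid receptor motif AGAACA (19%), the FOXA motif TGTTTAC (3.65%), the HNF4A motif CAAAGTCCA (0.475%) and the HNF1 motif (0.0578%) were present in 0 of the 8. No motif overlapped another in the windows shown, and a match describes letters and not binding.

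Most of the enzymes were lower in CDAHFD livers than in control livers, and none was higher. At 1, 2 and 6 weeks 7, 6 and 6 of the 9 fell, and 8 fell in the difference averaged over weeks. In the test of the median-subtracted differences 7, 7, 7 and 8 fell, with Tat added at 2 weeks and Tdo2 at 6 weeks. Across all genes tested, 15, 14.9 and 16.2% fell at 1, 2 and 6 weeks and 25.7% in the average, while 25.9, 22.9, 24.5 and 35.6% rose. At 6 weeks the count of enzymes was 2, Fah and Hgd, without control replicate 1 or without CDAHFD replicate 2 of that week. The median difference of the 9, with the dim spots masked, was -0.94, -0.80 and -0.67 at 1, 2 and 6 weeks. The size depends on the processing. With quantile normalization, without masking, 5, 4 and 5 of the 9 fell, with medians of -0.45, -0.40 and -0.42. With normexp background correction 6 fell at each week, with medians of -0.47, -0.56 and -0.55. The probes of these enzymes are bright, at the 87.7th to 97.4th percentile of genes by mean level, and bright genes were on the whole lower in CDAHFD livers. In the brightest 10% of genes, 49.9, 45.7 and 37.6% fell at 1, 2 and 6 weeks and 63.5% for the average. Their median differences were -0.51, -0.41, -0.31 and -0.43. The part of this in the fall of the enzymes was not tested.

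**Figure D1:**
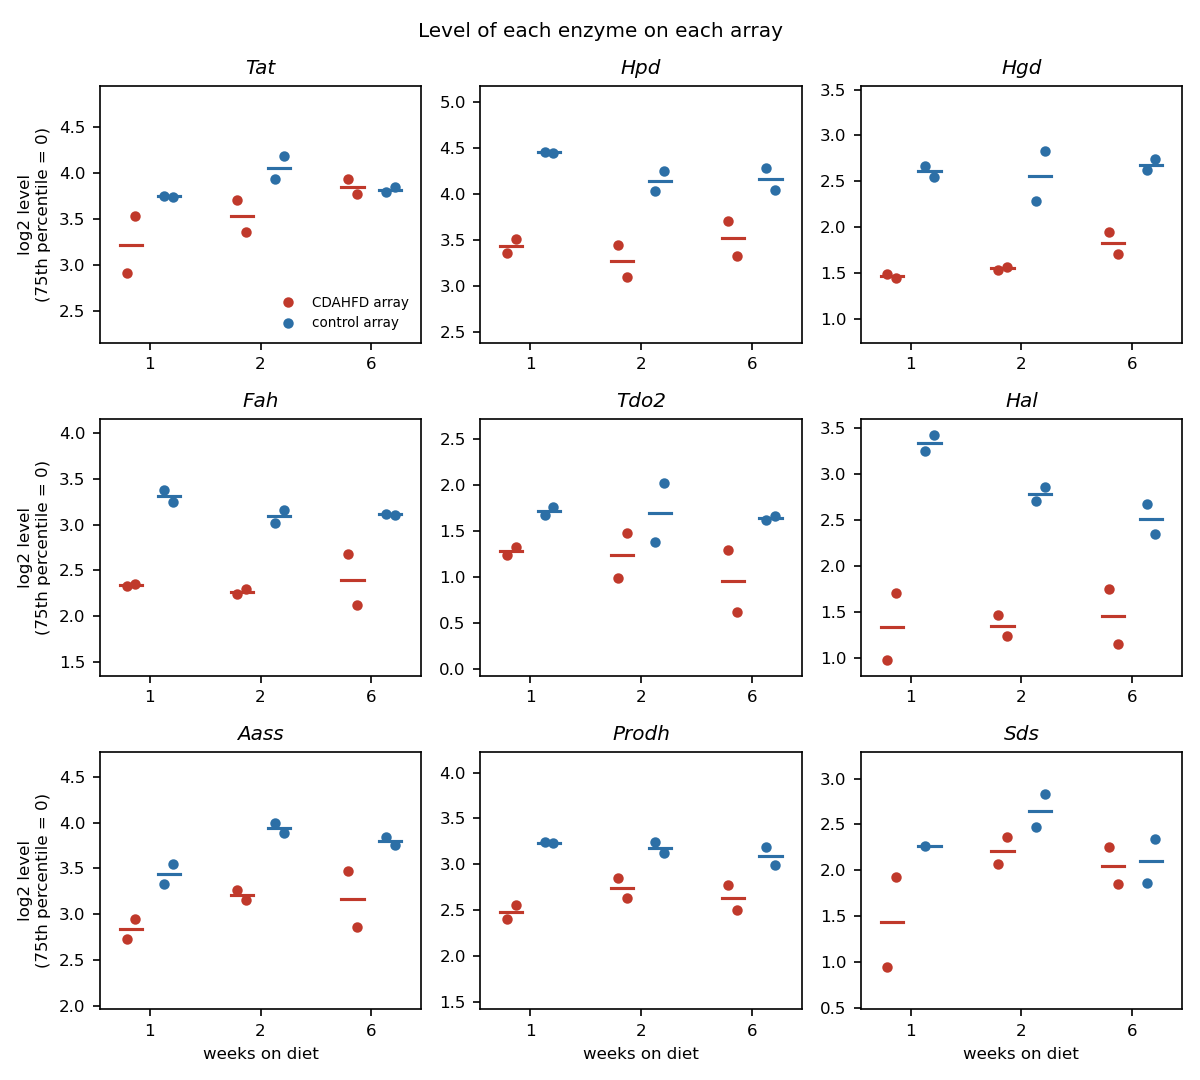
Level of each of the 9 enzymes on each array (log2 intensity relative to the array's 75th percentile, vertical axes of equal span) against weeks on diet, with CDAHFD arrays in red to the left of control arrays in blue and bars at group means (n = 2, or 1 for Sds in controls at 1 week, where a dim spot is masked). In Hpd, Hgd, Fah, Hal and Prodh all 6 CDAHFD arrays lie below all 6 control arrays.

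Hpd, the dioxygenase that makes homogentisate, was at 3.36 and 3.51 on the CDAHFD arrays, against 4.47 and 4.45 on the control arrays, at 1 week. At 2 weeks it was at 3.44 and 3.10 in CDAHFD livers and 4.03 and 4.25 in control livers. At 6 weeks the values were 3.71 and 3.33 in CDAHFD livers and 4.28 and 4.04 in control livers. The groups did not overlap at any week, and all 6 CDAHFD arrays lay below all 6 control arrays, which 11% of all genes did. Hpd fell by 1.15 ± 0.16 (SE, adjusted p = 8.25e-04) at 1 week. It fell by 0.92 (adjusted p = 0.00202) at 2 weeks and by 0.67 (adjusted p = 0.0101) at 6 weeks. The call at 6 weeks ended without CDAHFD replicate 2 (-0.47, adjusted p = 0.0675) or control replicate 1 (-0.54, adjusted p = 0.0863). Averaged over weeks its level was 52.9% of that in control livers, a difference of -0.92. Over other settings of the processing this difference ranged from -0.92 to -0.50.

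Hgd, which opens the aromatic ring of homogentisate, stood at 1.49 and 1.45 in CDAHFD livers and 2.68 and 2.55 in control livers at 1 week. At 2 weeks its levels were 1.53 and 1.57 in CDAHFD livers and 2.29 and 2.83 in control livers. At 6 weeks they were 1.95 and 1.71 in CDAHFD livers and 2.62 and 2.74 in control livers. The 6 CDAHFD arrays again lay below the 6 control arrays. Hgd fell at each week, with differences of -1.27 ± 0.16 (SE, adjusted p = 4.09e-04), -1.06 (adjusted p = 7.34e-04) and -0.88 (adjusted p = 0.00188) at 1, 2 and 6 weeks. Averaged over weeks it was at 47.4% of the control level, a difference that ranged from -1.08 to -0.82 over other settings of the processing.

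Fah, which splits fumarylacetoacetate into fumarate and acetoacetate, was at 2.33 and 2.35 in CDAHFD livers and 3.39 and 3.25 in control livers at 1 week. Its levels at 2 weeks were 2.24 and 2.30 in CDAHFD livers and 3.02 and 3.16 in control livers. At 6 weeks 2.68 and 2.12 in CDAHFD livers stood against 3.12 and 3.11 in control livers. Here too no CDAHFD array reached the lowest control array. Fah fell at each week, by differences of -1.11 ± 0.16 (SE, adjusted p = 8.23e-04), -0.87 (adjusted p = 0.00217) and -0.75 (adjusted p = 0.00427). Over other settings of the processing its average over weeks ranged from -0.91 to -0.59. Without CDAHFD replicate 2 the value at 6 weeks was -0.46, and the highest adjusted p with any array left out was 0.0286. The group means of Hpd and Fah, each centred on its own mean, differed by a root mean square of 0.048 log2 units over the 6 groups, the smallest value among all pairs of the 9 enzymes. Fah and Hgd (0.144) and Tdo2 and Prodh (0.144) came next.

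Tat, which starts tyrosine breakdown, was the member of its chain whose groups overlapped at 6 weeks. At 1 week it was at 2.91 and 3.53 in CDAHFD livers and 3.76 and 3.74 in control livers. At 2 weeks it was at 3.71 and 3.36 in CDAHFD livers and 3.93 and 4.19 in control livers. At 6 weeks the groups overlapped, with 3.93 and 3.77 in CDAHFD livers and 3.79 and 3.85 in control livers. Tat fell by 0.66 ± 0.19 (SE) at 1 week with an adjusted p of 0.0476, close to the threshold. The call was lost in 9 of 12 fits that left out an array, and without CDAHFD replicate 1 at 1 week the difference was -0.33 (adjusted p = 0.398), against -1.01 without CDAHFD replicate 2. With quantile normalization it was -0.16 (adjusted p = 0.697) and with normexp background correction -0.20 (adjusted p = 0.144). At 2 weeks the difference was -0.58 ± 0.19 (SE), with an adjusted p of 0.0527 before the median was subtracted and 0.0360 for the subtracted value, so that the call depends on this choice. With the dim spots masked, the adjusted p before subtraction was 0.0482. At 6 weeks it was 0.00 with a 95% interval of -0.43 to 0.43 (adjusted p = 0.914). The change of the difference between 6 weeks and 1 week, 0.60 ± 0.27 (SE), did not pass (adjusted p = 0.242), so the weeks are not shown to differ. Averaged over weeks Tat fell by 0.42 ± 0.11 (SE, adjusted p = 0.0208), a call that ended with quantile normalization (-0.02, adjusted p = 0.947) and normexp (-0.12, adjusted p = 0.0746), or without CDAHFD replicate 2 (-0.36, adjusted p = 0.0640) or control replicate 2 (-0.38, adjusted p = 0.0555) of week 2.

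Tdo2, which starts the kynurenine pathway of tryptophan, had levels of 1.24 and 1.33 in CDAHFD livers and 1.68 and 1.76 in control livers at 1 week. At 2 weeks the groups overlapped, at 0.99 and 1.48 in CDAHFD livers and 1.38 and 2.02 in control livers. At 6 weeks they did not, at 1.29 and 0.62 in CDAHFD livers and 1.62 and 1.66 in control livers. The differences of -0.57 (95% interval -1.14 to 0.00, adjusted p = 0.195), -0.52 (-1.09 to 0.05, adjusted p = 0.177) and -0.72 (-1.29 to -0.15, adjusted p = 0.0552) at 1, 2 and 6 weeks did not pass before the median was subtracted. The median-subtracted value at 6 weeks did pass (adjusted p = 0.0453), and with the dim spots masked the unsubtracted one did too (adjusted p = 0.0476). The value at 6 weeks depended on which CDAHFD array of that week was fitted, at -1.10 (adjusted p = 0.0115) without CDAHFD replicate 1 and -0.38 (adjusted p = 0.324) without CDAHFD replicate 2. Fitted on the arrays of its week alone, the value at 1 week passed (adjusted p = 0.0136). Averaged over weeks, Tdo2 fell by 0.61 ± 0.15 (SE, adjusted p = 0.0104), to 65.6% of the control level. Over other settings of the processing this difference ranged from -0.61 to -0.37.

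Hal, histidine ammonia-lyase, which turns histidine into urocanate, had the largest fall of the 9 at each week. Its levels were 0.97 and 1.70 in CDAHFD livers and 3.26 and 3.43 in control livers at 1 week. They were 1.46 and 1.23 in CDAHFD livers and 2.71 and 2.86 in control livers at 2 weeks, and 1.75 and 1.15 in CDAHFD livers and 2.67 and 2.35 in control livers at 6 weeks. All CDAHFD arrays lay below all control arrays. Hal fell by 2.14 ± 0.25 (SE, adjusted p = 2.43e-04) at 1 week, to 22.7% of the control level. Over other settings of the processing the difference at 1 week ranged from -2.14 to -1.37. At 2 weeks it fell by 1.49 (adjusted p = 0.00149), to 35.7%, and at 6 weeks by 1.09 (adjusted p = 0.00727), to 46.8%. The call at 6 weeks ended without CDAHFD replicate 2 (-0.79, adjusted p = 0.0544) or control replicate 1 (-0.93, adjusted p = 0.0597). In mean level, the CDAHFD livers stayed at 1.34, 1.35 and 1.45 over the 3 times while the control livers were at 3.35, 2.78 and 2.51. In control livers the difference of 6 weeks minus 1 week, with the dim spots masked and the all-gene median subtracted, was -0.85 ± 0.24 (SE, adjusted p = 0.0427 in that contrast). The F test over the 3 times in control livers did not pass for Hal or any other of the 9. Week 6 was hybridised on another slide than weeks 1 and 2, and slide, age and time on diet cannot be told apart within a diet. The change of the diet difference of Hal from 1 to 6 weeks was 0.98 ± 0.35 (SE) and did not pass (adjusted p = 0.142).

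Aass, the saccharopine pathway enzyme of lysine breakdown, was at 2.73 and 2.95 in CDAHFD livers and 3.34 and 3.55 in control livers at 1 week. At 2 weeks it was at 3.26 and 3.15 in CDAHFD livers and 4.0 and 3.89 in control livers, and at 6 weeks at 3.47 and 2.86 in CDAHFD livers and 3.84 and 3.76 in control livers. The diets did not overlap within a week, but the highest CDAHFD array, at 6 weeks, exceeded the lowest control array, at 1 week. Aass fell, with differences of -0.73 ± 0.18 (SE, adjusted p = 0.0213), -0.80 (adjusted p = 0.00752) and -0.67 (adjusted p = 0.0157) at 1, 2 and 6 weeks. With quantile normalization the value was -0.26 (adjusted p = 0.308) at 1 week and -0.40 (adjusted p = 0.0579) at 2 weeks. The call at 1 week ended without CDAHFD replicate 1 (-0.60, adjusted p = 0.148) or control replicate 2 (-0.60, adjusted p = 0.110), and at 2 weeks without CDAHFD replicate 2 (-0.75, adjusted p = 0.0561). At 6 weeks it ended without CDAHFD replicate 2 (-0.36, adjusted p = 0.0962), control replicate 1 (-0.62, adjusted p = 0.0846) or control replicate 2 (-0.71, adjusted p = 0.0515), and when only the arrays of that week, all on 1 slide, were fitted (adjusted p = 0.0787). Without CDAHFD replicate 1 the value at 6 weeks was -1.01.

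Prodh, the mitochondrial proline dehydrogenase, was at 2.40 and 2.56 in CDAHFD livers and 3.25 and 3.23 in control livers at 1 week. Its levels were 2.85 and 2.63 in CDAHFD livers and 3.24 and 3.12 in control livers at 2 weeks, and 2.77 and 2.50 in CDAHFD livers and 3.19 and 2.99 in control livers at 6 weeks. No CDAHFD array reached a control array. Prodh fell, with differences of -0.90 ± 0.13 (SE, adjusted p = 0.00120), -0.49 (adjusted p = 0.0227) and -0.49 (adjusted p = 0.0174) at 1, 2 and 6 weeks. With quantile normalization the values at 2 and 6 weeks were -0.17 (adjusted p = 0.260) and -0.24 (adjusted p = 0.0675). The call at 2 weeks ended without CDAHFD replicate 2 (-0.38, adjusted p = 0.174) or control replicate 1 (-0.41, adjusted p = 0.118). At 6 weeks it ended without CDAHFD replicate 2 (-0.35, adjusted p = 0.101) or control replicate 1 (-0.39, adjusted p = 0.132), and when only the arrays of that week were fitted (adjusted p = 0.0722).

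Sds, which converts serine into pyruvate and ammonia, could be read on 1 of the 2 control arrays at 1 week, since its spot on control replicate 1 lay in the dim corner, with a processed intensity of 3.21 against at least 3689 on the other arrays. Its levels at 1 week were 0.94 and 1.93 in CDAHFD livers and 2.26 on the remaining control array. They were 2.07 and 2.36 in CDAHFD livers and 2.47 and 2.83 in control livers at 2 weeks, and 2.25 and 1.85 in CDAHFD livers and 1.86 and 2.34 in control livers at 6 weeks, where the diets overlapped. With the dim spots masked, the differences were -0.94 (95% interval -1.81 to -0.07, adjusted p = 0.116), -0.48 (adjusted p = 0.306) and -0.09 (adjusted p = 0.910), and none passed. The average was -0.50 ± 0.20 (SE, adjusted p = 0.0795). With the dim spot kept, the difference at 1 week was 4.21 ± 2.95 (SE, adjusted p = 0.284) and the average 1.21 ± 1.70 (SE, adjusted p = 0.545), so that 1 spot turns the direction of both.

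**Figure D2:**
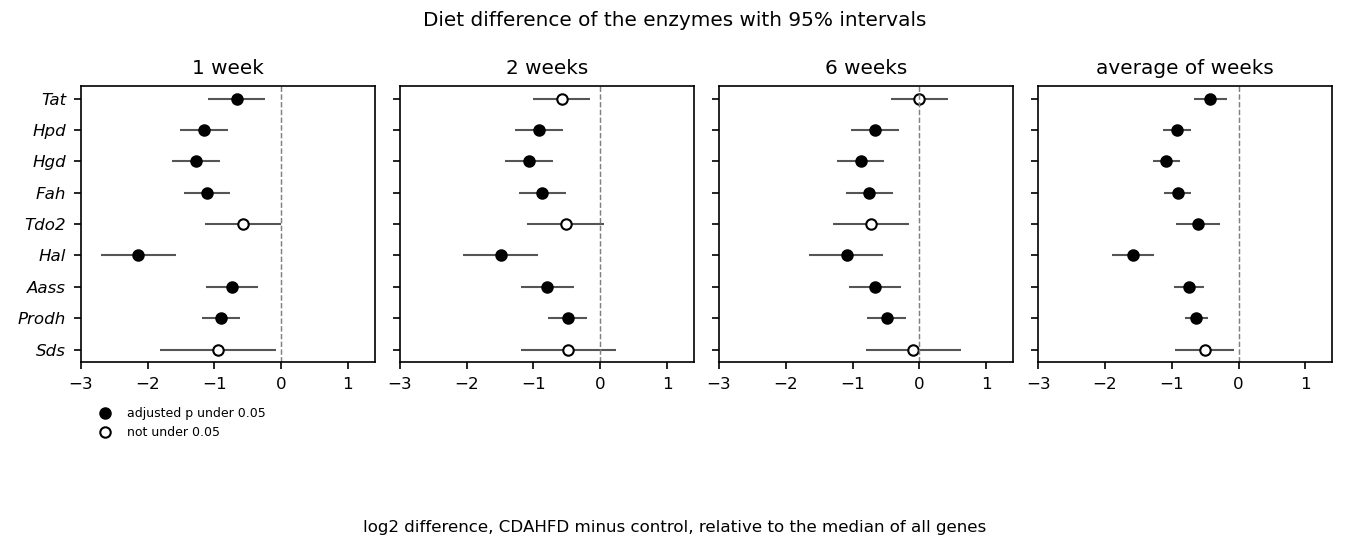
Diet difference of each enzyme (horizontal axis, log2, CDAHFD minus control, all-gene median subtracted) at 1, 2 and 6 weeks and averaged over weeks, with 95% intervals of the fit; filled points passed an adjusted p of 0.05, and Sds is shown with the dim spots masked. Hal has the largest difference in each panel, and at 6 weeks the points of Tat (0.00) and Sds (-0.09) lie at or near 0.

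Counted by arrays, with the dim spots masked, 9, 8 and 7 of the enzymes had both CDAHFD arrays below both control arrays (for Sds at 1 week, below the 1 control array) at 1, 2 and 6 weeks. Of all genes, 30.5, 32.4 and 32.6% did so. Tdo2 overlapped at 2 weeks and Tat and Sds at 6 weeks. Whether the diet differences changed with time was tested directly. By F test over the 3 weeks, 0 of the 9 changed, with 0 at an unadjusted p under 0.05, and 2.4% of all genes did by adjusted p. Between 6 weeks and 1 week 0 passed, against 5.38% of all genes (748, or 130 without control replicate 1 at 6 weeks), and at an unadjusted p under 0.05 there was 1, Hal. Within CDAHFD livers, 0 of the 9 varied over the 3 times by adjusted p, against 3.1% of all genes, and at an unadjusted p under 0.05 there was 1, Tat, at 0.64 ± 0.19 (SE, adjusted p = 0.0713) between 6 weeks and 1 week with the dim spots masked. Within control livers 0 of 9 varied by adjusted p, against 11.5% of all genes, with Hal and Aass at an unadjusted p under 0.05.

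Hepatocyte markers were lower in the same livers. All 9 measured markers were well above background on both arrays of each group. At 1, 2 and 6 weeks 8, 7 and 5 of the 9 fell, with median differences of -1.01, -0.73 and -0.43. Their summed level, in multiples of the 75th percentile, ranged from 270.3 to 316 in CDAHFD livers and 493 to 594 in control livers at 1 week. At 2 weeks it ranged from 256 to 264 in CDAHFD livers and 376 to 432 in control livers, and at 6 weeks from 249.7 to 272 in CDAHFD livers and 331 to 351 in control livers. The scaling bears on these markers. With quantile normalization 3, 0 and 0 of the 9 markers fell and 0, 1 and 1 rose, with medians of -0.16, -0.14 and -0.03 at 1, 2 and 6 weeks. Of the 9 enzymes 5, 4 and 5 fell with it, against 7, 6 and 6 in the main fit, with Hpd, Hgd, Fah and Hal among them at each week. Quantile normalization makes the intensity distributions of the arrays equal, so these counts do not set the enzymes apart from the markers. In whole liver, fewer hepatocytes and less RNA per hepatocyte cannot be told apart. Of the stellate and fibroblast markers 8 of 9 rose at each week, and of the macrophage and monocyte markers 4, 7 and 7 of 10 rose and 1, 0 and 0 fell at 1, 2 and 6 weeks. All 4 erythroid markers measured fell at each week. Of the cholangiocyte markers 1, 1 and 2 of 7 rose. Across all genes 25.9, 22.9 and 24.5% rose at 1, 2 and 6 weeks and 15, 14.9 and 16.2% fell, so the cholangiocyte counts are not read as a change. The part of these cell types in the differences of the enzymes was not tested.

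Set against the mean of the 9 hepatocyte markers on the same array, with the dim spots masked, the enzymes differed between the diets by a median of -0.06, -0.13 and -0.26 log2 units at 1, 2 and 6 weeks, within a range of -1.14 to 0.43. Hal lay below the markers' own difference at each week, at -1.14, -0.82 and -0.68, and the diets did not overlap on this scale either. Hgd was at -0.27, -0.39 and -0.47, with an overlap at 2 weeks. Tat was at 0.34, 0.09 and 0.41, higher without overlap at 1 and 6 weeks. Prodh was at 0.10, 0.18 and -0.08, higher without overlap at 2 weeks. Hpd was at -0.15, -0.25 and -0.26, lower without overlap at 6 weeks. Tdo2 was at 0.43, 0.15 and -0.31 and Aass at 0.27, -0.13 and -0.25, both higher without overlap at 1 week. Aass was lower without overlap at 2 weeks. Fah was at -0.11, -0.20 and -0.33, lower without overlap at 6 weeks. Sds was at -0.06, 0.19 and 0.33, with an overlap at each week. These are values on 2 arrays per group (1 for Sds in controls at 1 week), with no test. The share of all genes without overlap on this scale was not computed.

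**Figure D3:**
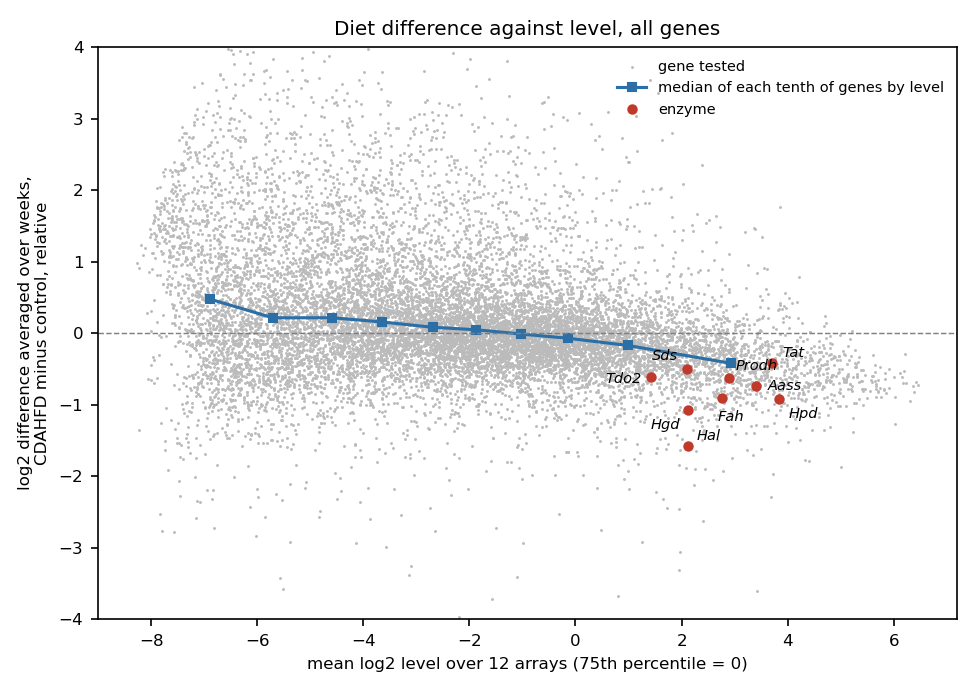
Diet difference averaged over weeks (vertical axis, log2, CDAHFD minus control, all-gene median subtracted) against mean log2 level over the 12 arrays (horizontal axis) for the genes tested in grey, with the median of each 10% of genes by level in blue and the 9 enzymes in red (Sds with the dim spots masked). The brightest 10% have a median of -0.43, and 66 genes beyond 4 in either direction are not drawn. Of the 9, Hal and Hgd lie lowest.

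Other enzymes of the same pathways, from lists written with earlier results of these data known, were also mostly lower. The lists are thus no independent test. Of 62 measured companions, 46, 43 and 44 fell at 1, 2 and 6 weeks and 1 rose at each, with medians of -0.71, -0.77 and -0.70, where the median of all genes is 0 by construction. With quantile normalization 30, 38 and 37 fell and 2, 1 and 1 rose, with medians of -0.45, -0.60 and -0.54. In the average over weeks 54 fell and 2 rose, or 47 and 2 with quantile normalization. Of all genes tested, 15, 14.9 and 16.2% fell at 1, 2 and 6 weeks and 25.7% in the average. Among the brightest genes, grouped as above, these shares were 49.9, 45.7 and 37.6%, and 63.5% in the average. The counts of the single lists that follow are to be read against these shares too. The part of brightness in the fall of the companions was not tested. Differences of single genes in the paragraphs on companions are averages over weeks. Beyond the opening 2 symbols of each list, genes were named with their values in this same average known, and they serve as examples only.

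In phenylalanine and tyrosine breakdown 6 of 6 fell, or 3 of 6 with quantile normalization. Qdpr, which regenerates tetrahydrobiopterin, fell by 1.30 ± 0.07 (SE, adjusted p = 2.08e-07). Gstz1, the isomerase that acts between Hgd and Fah, fell by 0.68 ± 0.07 (SE, adjusted p = 4.06e-05). In tryptophan breakdown 8 of 8 fell. Afmid, the formamidase that follows Tdo2, was at -1.99 ± 0.26 (SE, adjusted p = 3.49e-04), Haao, which makes the precursor of quinolinate, at -1.63 ± 0.09 (SE, adjusted p = 2.24e-07), and Kynu, kynureninase, at -1.06 ± 0.07 (SE, adjusted p = 7.92e-07). In histidine breakdown 3 of 3 fell. Uroc1 and Amdhd1, which act in turn after Hal, were at -1.20 ± 0.10 (SE, adjusted p = 5.10e-06) and -1.42 ± 0.08 (SE, adjusted p = 1.69e-07), and Ftcd was at -0.73.

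In lysine breakdown 4 of 5 fell, led by Aldh7a1 at -1.25 ± 0.11 (SE, adjusted p = 7.82e-06), the dehydrogenase that follows the saccharopine steps, with Pipox at -1.06, Dhtkd1 at -0.92 and Gcdh at -0.90. Hykk, the hydroxylysine kinase, was at -0.15 and did not pass (adjusted p = 0.685). In the list of proline, hydroxyproline, ornithine and glutamate, 6 of 6 fell. Aldh4a1, which follows Prodh, and Prodh2, the hydroxyproline dehydrogenase, were both at -0.70, and the liver glutaminase Gls2 was at -1.41 ± 0.07 (SE, adjusted p = 1.59e-07). Of the serine, threonine and glycine enzymes 8 of 10 fell, among them Gcat at -1.18, Gldc of the glycine cleavage system at -1.14 and Sdsl, a serine dehydratase-like enzyme, at -0.45.

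Among branched-chain amino acid enzymes 17 fell and 1 rose of 21. Hibadh, of valine breakdown, was at -0.99 ± 0.06 (SE, adjusted p = 3.09e-07) and Acad8 at -1.03, while of the subunits of the branched-chain ketoacid dehydrogenase Bckdha was at -0.44 (adjusted p = 0.00158, or 0.295 with quantile normalization) and Bckdhb at -0.03 (adjusted p = 0.641). The 1 that rose, Bckdk, the kinase that inhibits this complex, was at 0.24. It was named after its value was seen, and its call ended under 4 other scalings (highest adjusted p = 0.528) and in the test of the subtracted value (adjusted p = 0.0531). Of 3 measured genes of alanine and asparagine use, Gpt (-0.45, or -0.07 and not called with quantile normalization) and Aspg (-0.98) fell and Gpt2, the mitochondrial alanine aminotransferase, rose by 0.64 ± 0.10 (SE, adjusted p = 1.07e-04).

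**Figure D4:**
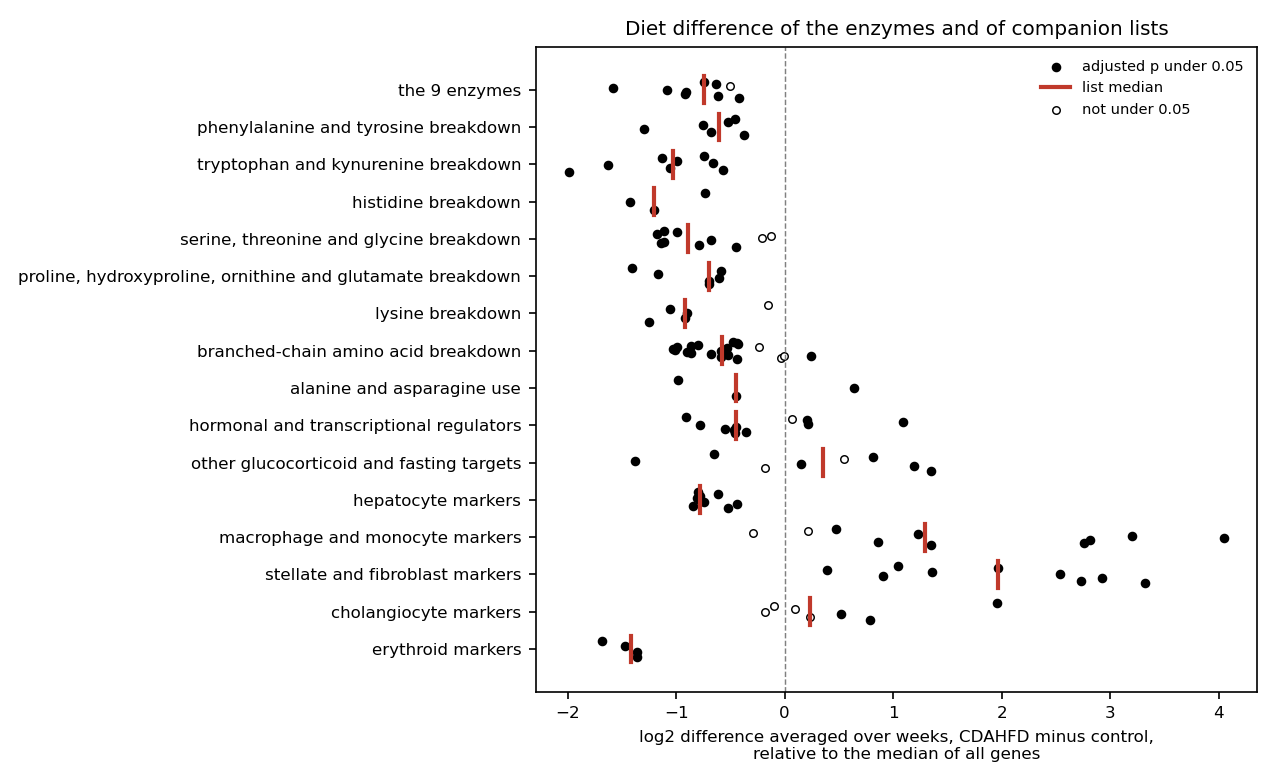
Diet difference averaged over weeks (horizontal axis, log2, CDAHFD minus control, all-gene median subtracted) of each measured gene of the 9 enzymes and of the companion lists, 1 point per gene and red bars at the list medians; filled points passed an adjusted p of 0.05, and genes read by dim spots are shown with those spots masked. The lists of breakdown enzymes lie mostly left of 0, as do the hepatocyte markers, and the stellate markers right of it.

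Of 11 hormonal and transcriptional regulators of these genes 7 fell and 3 rose in the average. With quantile normalization 5 fell and 3 rose, and the list median went from -0.45 to -0.10. Of all genes, 25.7% fell and 35.6% rose in the average, so the 3 rises are not read as a change of this list. Nr3c1, the glucocorticoid receptor, was at -0.46 ± 0.08 (SE, adjusted p = 0.00224), Gcgr, the glucagon receptor, at -0.36 (adjusted p = 0.00909, though at 0.07 with adjusted p = 0.294 with quantile normalization), and Hsd11b1, which regenerates active glucocorticoid, at -0.91 (adjusted p = 1.61e-04). Cebpa, a C/EBP factor of mature hepatocytes, was at -0.78 ± 0.08 (SE, adjusted p = 3.45e-05), and Hnf4a at -0.55 (adjusted p = 7.72e-05, or -0.10 and not called with quantile normalization). The 3 that rose, named after their values were seen, were the coactivator Ppargc1a (1.09), Cebpb (0.22) and Foxo1 (0.21), of which the last 2 were not called with the median as scale or the percentile over all probes, nor Foxo1 in the test of the subtracted value (adjusted p = 0.0502). Of 8 other targets of glucocorticoids and fasting 3 rose and 2 fell, or 4 and 2 with the dim spots masked, shares close to the 35.6 and 25.7% of all genes. Fkbp5 (1.35 ± 0.18 SE, adjusted p = 9.08e-05) and Per1 (1.19 ± 0.17 SE, adjusted p = 1.31e-04), both induced by the glucocorticoid receptor, rose, as did Pck1 of gluconeogenesis (0.15, adjusted p = 0.0228), whose value stayed at 0.15 but whose call ended in the test of the subtracted value (adjusted p = 0.109), with the median as scale (adjusted p = 0.389) and with the percentile over all probes (adjusted p = 0.848), while G6pc, a phosphatase that releases glucose, was at -1.38 ± 0.29 (SE, adjusted p = 0.00514) and fell with Dusp1 (-0.65, or adjusted p = 0.115 with normexp). Tsc22d3, another gene induced by glucocorticoids, was at -0.18 and did not pass (adjusted p = 0.721).

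For each enzyme the 2 genes with the most similar pattern were found among 11344 other genes well above background on all arrays (11345 for Sds), by the root mean square difference over the 6 centred group means. For Tat these were Got1, an aspartate aminotransferase (0.076), and Ablim3 (0.078), and for Hpd they were Fah (0.048) and Fhl3 (0.049). Fah was nearest to Fhl3 (0.032) and Hgd to Hsd17b10 (0.052), an enzyme of isoleucine breakdown. Aass was nearest to Arg1 (0.059), the arginase of the urea cycle, and then to Kmo (0.100) of the kynurenine pathway, Prodh to Mob1b (0.055), and Tdo2 to Nsmf (0.048). Hal had no gene this close, its nearest being Pde5a at 0.120, and Sds, with the dim spots masked, was nearest to Slc25a15 (0.144), the mitochondrial ornithine carrier. The median over candidates lay between 0.349, for Tdo2, and 0.820, for Hal. A gene with larger differences between groups lies farther from most genes, so the distances do not rank the enzymes by how unusual their patterns are.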

How the data were processed

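The deposited values are Agilent spot intensities on a linear scale, background-subtracted and detrended by Feature Extraction within each array only, per the file headers, which give version 11.5.1.1, while the submitters' processing notes give 10.7. From each array, 59305 gene spots of 55681 probes were used, 2255 outlier spots were left out over all arrays, and 0 were saturated. Accessions were named through RefSeq (GRCm38.p6), which gave 28664 probes with 21613 symbols and left 27017 unnamed; its coordinates were used for promoters only, since the array was annotated on mm9.

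Processed intensities were taken as log2 minus each array's 75th percentile taken over 20137 probes detected on all 12 arrays, because each array detected under 50% of its probes. Genes needed a probe detected on both arrays of some group, and the brightest probe was read. Differences were tested with limma 3.58.1 in R 4.3.3 (trend and robust, 2-sided, 6 group means, 6 residual degrees of freedom), a step tested on simulated data. The number of arrays limits the precision. Normexp used median signals, offset 50. For the dim corner, 1212 spots, which read 339 genes, were masked as an alternative. The 9 enzymes and the companion lists (124 symbols, 120 measured) were chosen with earlier results of these data known. Named were the 9, the opening 2 symbols of each list and up to 3 more by adjusted p in the average, from which examples are given. The result for 1 such gene is not reported here. Replicate numbers did not pair the arrays.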

Additional observations from a re-analysis of the deposited data

How the results depend on the processing

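Over 13 to 16 other settings, which changed the scaling, background correction, filters, probe rule, variance model, arrays fitted or masking, 5 to 8 enzymes fell at 1 week, 4 to 7 at 2 weeks, 4 to 7 at 6 weeks and 7 to 9 in the average. Hpd, Fah, Hgd and Hal fell at each week in all of these. With 1 array left out, 5 to 7 fell at 1 week, 4 to 7 at 2 weeks, 2 to 7 at 6 weeks and 7 to 8 in the average. The count of 2 at 6 weeks, Fah and Hgd, came without control replicate 1 or without CDAHFD replicate 2 of that week, where Hpd (adjusted p = 0.0863 and 0.0675), Hal (0.0597 and 0.0544), Prodh (0.132 and 0.101) and Aass (0.0846 and 0.0962) were lost. Changes of the diet difference between weeks (F test, 2 minus 1 week, 6 minus 1 week) numbered 0 to 1 with an array left out, the 1 being Sds without control replicate 2 at 1 week, when its dim spot alone stands for that group. Enzymes varying over weeks in control livers numbered 0 to 1 with an array left out, and 1 with quantile normalization. The average of Sds was -0.50 (adjusted p = 0.0474) with the dim spots masked and the test run relative to the all-gene median, a setting chosen after seeing the data, against 1.21 with the spot kept.

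Deviations of same-numbered replicates correlated between -0.15 and 0.22 over pairs of groups. The numbers follow the row of the slide and were not taken to pair arrays. With the replicate block, 6, 6, 6 and 8 enzymes fell at 1, 2 and 6 weeks and in the average, and Tat at 1 week was lost (adjusted p = 0.0562). Counts of all genes called moved by over 1.5 times at 1 week, with 3122 without CDAHFD replicate 1 against 5689, at 2 weeks, with 3423 with normexp and 3381 without CDAHFD replicate 2 against 5258, and at 6 weeks, with 3767 with normexp against 5658. Genes whose diet difference changed between 6 weeks and 1 week numbered 748, but 130 to 472 without either week-6 control array, either week-1 CDAHFD array, either week-2 CDAHFD array or control replicate 1 at 1 week. The scaling moves the median of all genes: at 1 week 63.3% of calls were higher, against 45.5% with the median as scale, 36.1% with the percentile over all probes and 33.2% with normexp.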
